A study of Mus musculus with 11 samples.

Results

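The genes described here are 5 mouse genes that lie wholly inside another gene, with the 5 genes that host them: Nnat in Blcap, Peg13 in Trappc9, Nap1l5 in Herc3, Mcts2 in H13 and Zrsr1 in Commd1. They were taken by name, and make up 10 of the 49554 genes of the RefSeq table on chromosomes 1 to 19 and X. For each gene, CpGs were read in a promoter window of 1000 bp on both sides of its start, and in the gene body with 2 kb on both sides (mm10). The nested gene's promoter was then set against the host's promoter.

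Genomic imprinting is the expression of a gene from the copy of only 1 parent, and it follows DNA methylation that is laid down in 1 germ line and kept on that copy after fertilisation. At many imprinted loci the methylated copy carries H3K9me3, deposited through the zinc finger protein ZFP57 and its partner TRIM28, while the unmethylated copy is free of it. A retrogene arises when a messenger RNA is copied back into the genome. Several retrogenes that landed in an intron carry a CpG-rich promoter that became imprinted while the host's own promoter did not. Nap1l5, Mcts2 and Zrsr1 are textbook retrogenes of this kind, Nnat is a nested imprinted gene that encodes a small membrane proteolipid of neural cells, and Peg13 is a long noncoding RNA. The deposited calls do not separate the parental copies, so a level here is over both.

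CUT&Tag-BS was used, in which a transposase tethered to an antibody cuts chromatin that carries a histone mark and the cut fragments are bisulfite sequenced, so that each CpG call comes from chromatin with the mark or from background cutting. The cells were E14, a single line of mouse embryonic stem cells of 129/Ola background, cultured in serum medium to which leukemia inhibitory factor was added, with no other treatment. There were 8 bisulfite libraries: H3K4me1 and H3K9me3 in run 1 (reads of 35 bp) and run 2 (75 bp), each from 250000 cells, and H3K27me3 from 4000, 20000, 100000 and 250000 cells. A control of each mark was prepared without bisulfite and has peaks only. H3K4me1 marks enhancers and promoter flanks, H3K9me3 heterochromatin and imprinted methylated copies, and H3K27me3 is the Polycomb mark.

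Total calls per library were 4917718 and 9690770 for H3K4me1, 2012835 and 6355757 for H3K9me3, and 378056, 5019897, 24468360 and 37177077 for H3K27me3 in order of cell number. The level over all calls was from 32.4 to 33.4% in the H3K4me1 and H3K27me3 libraries and 81.2 and 81.9% in the H3K9me3 runs. At CpGs called once in each run, the state was the same at 97.6% of 558920 CpGs for H3K4me1 and at 95.9% of 482946 for H3K9me3. Calls at CpGs called 2 times within run 2 had the same state at 77.4 and 83.5%, so the runs of a mark were treated as repeat sequencing of 1 library. Every mark therefore has 1 library, or 1 per cell number, and the tests below compare places or libraries and have no biological replicate. Of 8 markers of embryonic stem cells, 7 had at least 10 H3K4me1 calls and promoter levels from 0 to 3.85%, and 6 of the 8 promoters overlapped an H3K4me1 peak. A peak also overlapped 2 of 3 trophoblast, 2 of 3 primitive endoderm and 1 of 3 fibroblast promoters. These overlaps are with the authors' unified H3K4me1 list, which touched 16.4% of all promoters. Where there were at least 10 calls, levels were 0.62 to 2.75% for trophoblast, 2.34 to 10.1% for primitive endoderm and 8.39 to 31.3% for fibroblast promoters.

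The nested genes are small and their promoters rich in CpGs. Nnat spans chr2:157560078-157562525 on the plus strand (2448 bp, 96 CpGs in the promoter window), Peg13 chr15:72805602-72810324 (4723 bp, 88 CpGs), Nap1l5 chr6:58905233-58907126 on the minus strand (1894 bp, 72 CpGs), Mcts2 chr2:152687148-152687946 on the plus strand (799 bp, 82 CpGs) and Zrsr1 chr11:22972005-22976496 on the plus strand (4492 bp, 88 CpGs). Exon bounds were not used here, so no statement is made on the host exon or intron that a nested gene lies in. The hosts are Blcap (10000 bp), H13 (39247 bp), Commd1 (84812 bp), Herc3 (88944 bp) and Trappc9 (471619 bp). Starts of the pairs lie from 6283 bp (Nnat and Blcap) to 250914 bp (Peg13 and Trappc9) apart. For Peg13 and Trappc9 the start is the gene end with more CpGs, since the promoter table has no entry for them.

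The promoters of the 4 nested genes with an entry in the promoter table are shown, since their windows hold the levels compared between nested gene and host. Each line gives the 250 bases before the start, 5′ to 3′ in the direction of the gene, from RefSeq (GRCm38.p6, the same assembly as mm10). Capitals mark TGCCGC or its reverse complement GCGGCA, the hexamer that ZFP57 is known to bind when its CpG is methylated.

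Nnat, chr2:157559828-157560077, plus strand: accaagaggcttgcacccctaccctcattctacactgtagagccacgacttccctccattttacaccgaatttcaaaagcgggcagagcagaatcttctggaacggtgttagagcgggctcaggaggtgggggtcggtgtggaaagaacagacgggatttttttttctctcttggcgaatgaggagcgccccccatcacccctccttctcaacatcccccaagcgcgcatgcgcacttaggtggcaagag
Nap1l5, chr6:58907127-58907376, minus strand: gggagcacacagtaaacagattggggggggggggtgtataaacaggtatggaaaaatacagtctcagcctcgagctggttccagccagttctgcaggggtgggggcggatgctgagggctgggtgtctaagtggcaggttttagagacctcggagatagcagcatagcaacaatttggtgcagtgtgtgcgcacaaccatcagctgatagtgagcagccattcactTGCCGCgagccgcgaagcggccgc
Mcts2, chr2:152686898-152687147, plus strand: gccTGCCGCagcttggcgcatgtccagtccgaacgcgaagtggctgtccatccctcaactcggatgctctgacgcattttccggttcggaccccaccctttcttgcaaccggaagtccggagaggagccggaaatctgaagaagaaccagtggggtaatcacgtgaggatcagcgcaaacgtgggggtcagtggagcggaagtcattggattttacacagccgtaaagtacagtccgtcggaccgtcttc
Zrsr1, chr11:22971755-22972004, plus strand: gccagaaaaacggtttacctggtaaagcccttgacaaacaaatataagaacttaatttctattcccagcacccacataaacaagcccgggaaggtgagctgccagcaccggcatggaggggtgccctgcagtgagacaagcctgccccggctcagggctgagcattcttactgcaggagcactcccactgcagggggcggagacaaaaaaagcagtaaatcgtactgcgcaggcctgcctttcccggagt

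Further matches lie just after the start and are shown in 30 bases each, with the hexamer in capitals. Its first base lies 28 bases into the transcript at Nnat and Nap1l5 and 10 bases into it at Commd1. Of the hosts, Blcap, H13, Herc3 and Commd1 could be searched, and Trappc9 was not searched. Herc3 was searched at its annotated start only, and its CpG-rich 5′ end, 2245 bp away, was not searched.

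Nnat after the start, chr2:157560093-157560122, plus strand: gccaccggggctGCGGCAttgcgcccagca
Nap1l5 after the start, chr6:58907082-58907111, minus strand: gccgtcagcgttTGCCGCatcttcagacgc
Commd1 after the start, chr11:22982258-22982287, minus strand: ctcagccgctggGCGGCAggccctccttag

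Both strands were searched over 300 bases, from 250 before to 50 after the start. Nap1l5 held 2 matches and Nnat, Mcts2 and Commd1 held 1 each, while Zrsr1, Blcap, H13 and the annotated start of Herc3 held 0. Of all 32851 promoter sequences of that length 11.6% held a match, and 22.5% of the 14281 with at least 10 CpGs. These are letter matches in a short window, and 8 of the 10 genes have a sequence in the table. The matched CpGs had few calls. At Nap1l5 the match before the start had 8 of 8 H3K9me3 run 2 calls methylated and the match after it 1 of 4. In 250000-cell H3K27me3 they had 2 of 10 and 0 of 18. At the match of Nnat 5 of 5 H3K9me3 calls were methylated, and at that of Mcts2 0 of 3 H3K4me1 calls.

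H3K9me3 lay over nested promoters and, at the host starts used for the comparison, over no host promoter. A second start of Commd1, close to Zrsr1 and described with it, lies inside the Zrsr1 peak of run 2. Peaks called by the authors overlapped the promoters of Nnat, Peg13, Nap1l5 and Zrsr1 in both runs, 4 of 5 nested genes, and those of 0 of 5 hosts, where 2.86% of the promoters of all genes overlapped a run 2 peak. In the control without bisulfite 3 of 5 nested promoters overlapped a peak, Nap1l5 being the one that did not. The run 2 peak was 14838 bp wide at Peg13 (0.63% of run 2 peaks are as wide or wider), 10864 bp at Nnat (1.74%), 7192 bp at Zrsr1 (5.28%) and 1001 bp at Nap1l5, the narrowest width in the list. Mcts2 had no H3K9me3 peak in its body window in any list.

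**Figure D1:**
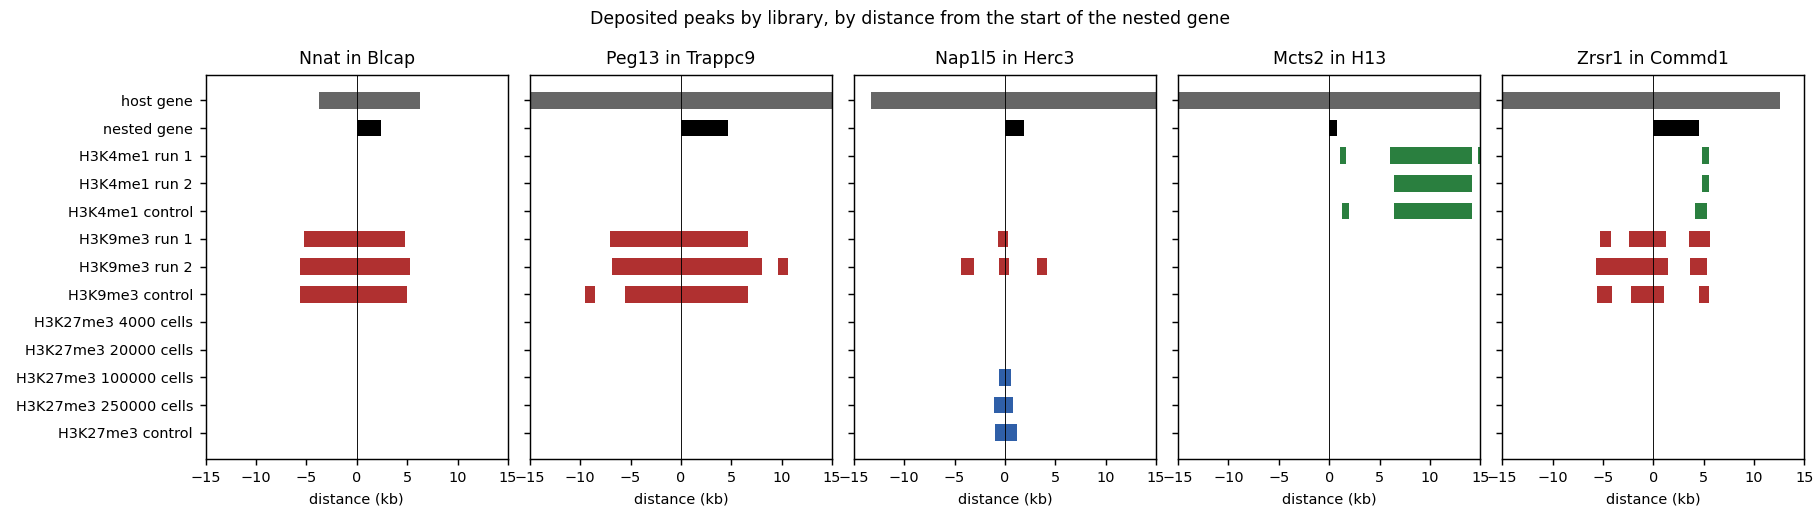
Deposited peaks of each library around the 5 nested genes, by distance from the start of the nested gene in its direction (kb, cut at 15 kb). Grey and black bars are the host and the nested gene, green H3K4me1, red H3K9me3 and blue H3K27me3 peaks. Red bars cover the start of every nested gene but Mcts2, and a blue bar covers only that of Nap1l5.

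Call density followed the peaks. Calls per CpG in the promoter window, over the mean of the library, were 31.3 at Peg13, 21.1 at Zrsr1, 17.2 at Nnat and 8.90 at Nap1l5 in H3K9me3 run 2, against 2.84 at Blcap, 0.616 at Herc3, 0.598 at Commd1 and 0 at Trappc9 and H13. From 0.0569 (Peg13) to 1.30% (Nap1l5) of all promoters were as dense. Mcts2 had 0 H3K9me3 calls in its promoter window in either run, as did 34.1% of all promoters in run 2, so its level in this mark could not be measured.

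**Figure D2:**
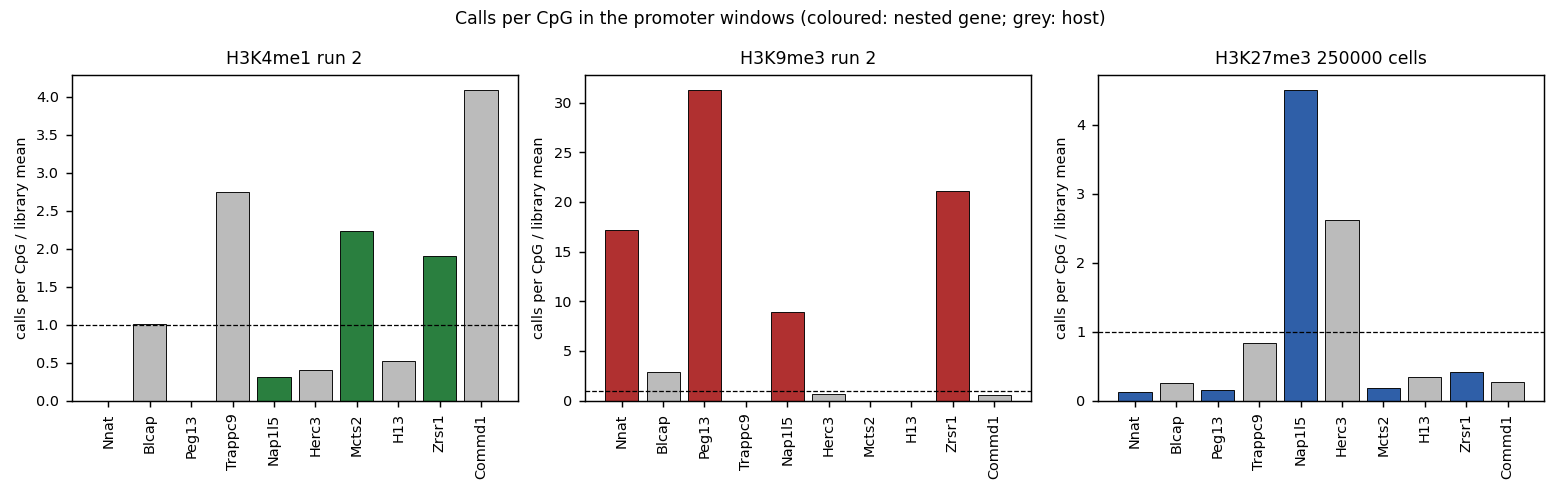
Calls per CpG in the promoter window divided by the mean of the library, for the 10 genes in H3K4me1 run 2, H3K9me3 run 2 and the 250000-cell H3K27me3 library. Coloured bars are nested genes, grey bars hosts, and the dashed line is the library mean. H3K9me3 stands at 8.90 or more at 4 nested genes, and H3K27me3 above 1 only at Nap1l5 and Herc3.

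In H3K9me3 chromatin the 4 nested promoters were almost fully methylated. Levels in run 2 were 93.4% at Nnat (455 of 487 calls, 95% Wilson interval 90.9 to 95.3%), 93.5% at Peg13 (759 of 812, 91.6 to 95%), 87.8% at Nap1l5 (166 of 189, 82.4 to 91.8%) and 90.5% at Zrsr1 (497 of 549, 87.8 to 92.7%). Run 1 gave 91.3, 93.3, 87.4 and 88.0%, within the intervals of run 2. Such intervals cover counting error only, since calls on 1 fragment and amplified copies are not independent. The p-values below count calls in the same way and can be too small for that reason. Single CpGs told the same: of those with at least 3 calls in run 2, 70 of 79 at Nnat, 75 of 80 at Peg13, 22 of 27 at Nap1l5 and 74 of 84 at Zrsr1 were at 80% or more, and none was at 20% or less.

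At the host starts used for the comparison, H3K9me3 calls were few and, at Blcap and Commd1, almost all unmethylated. Blcap had 1 methylated of 77 calls (1.30%, 0.23 to 7.0%) and Commd1 0 of 12, which allows up to 25%. Nnat was 92.1 points above Blcap (95% Newcombe interval 85.9 to 94.3 points, adjusted p = 2.167e-64, two-sided Fisher's exact test with Benjamini-Hochberg adjustment over 375 nested pairs). Zrsr1 was 90.5 points above Commd1 (66.1 to 92.7 points, adjusted p = 1.898e-11, same exact test). The other pairs had under 10 H3K9me3 calls at the host and were not tested. Nested genes of the whole annotation are mostly more methylated than their hosts: 58.9% of tested pairs were called higher and 9.6% lower, with a median difference of 47.7 points. Among pairs with at least 40 CpGs in both windows, a cut chosen after seeing the data, 40.7% were called higher. Being called higher is thus common among nested genes and is no result about these pairs. Differences as large as that of Nnat or larger were found in 10.9% of pairs, and as large as that of Zrsr1 in 13.9%.

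**Figure D3:**
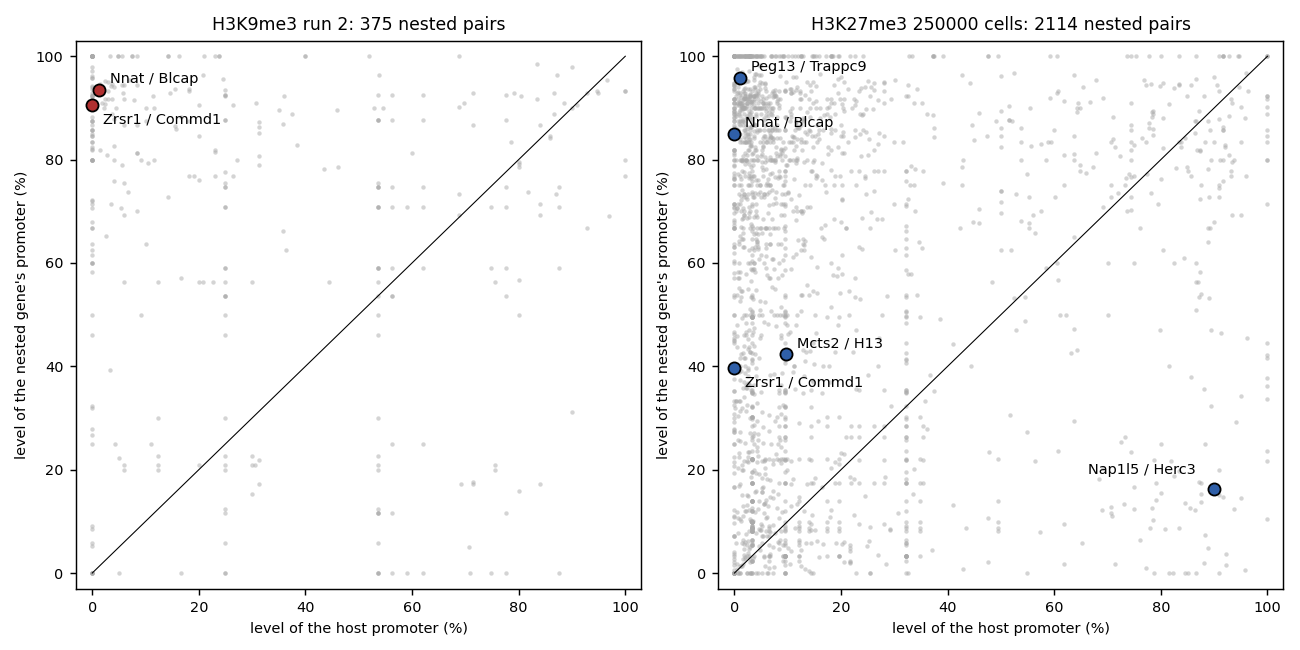
Promoter methylation level of nested gene (y, %) against host (x, %) for all tested nested pairs of the annotation (grey) and the named pairs (coloured), in H3K9me3 run 2 (375 pairs) and the 250000-cell H3K27me3 library (2114 pairs). The line marks equal levels. Nnat and Zrsr1 sit at the upper left in H3K9me3, and Nap1l5 / Herc3 lies below the line in H3K27me3 with the annotated Herc3 start.

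Nnat and Blcap show the edge between the states near the end of 1 peak. Blcap encodes an apoptosis-related protein and starts 6283 bp from Nnat. The H3K9me3 peak of run 2 runs from 5602 bp before to 5261 bp after the start of Nnat and ends 1022 bp before that of Blcap. Inside it 1093 of 1162 H3K9me3 calls were methylated (94.1%, 92.6 to 95.3%), and from its end to 1000 bp past the Blcap start 1 of 77 was. This last stretch holds the same 92 CpGs and calls as the Blcap promoter window above, so it is no separate observation. The other marks, with few calls, gave the same picture: H3K4me1 run 2 had 7 of 7 methylated inside and 1 of 42 beyond, and 250000-cell H3K27me3 31 of 34 and 0 of 42. No H3K4me1 or H3K27me3 peak touched either gene. The Nnat promoter itself had 0 calls in H3K4me1 run 2 and 3 in run 1 (2 methylated).

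Peg13 resembled Nnat. Its promoter had 0 H3K4me1 calls in both runs, and 23 of 24 calls were methylated in 250000-cell H3K27me3 (95.8%, 79.8 to 99.3%), with no H3K27me3 peak. The promoter of Trappc9, a host that encodes a trafficking and NF-kappaB signalling protein, was at 7.89% in H3K4me1 (6 of 76, 3.67 to 16.2%) and 1.1% in H3K27me3 (1 of 89, 0.199 to 6.09%). Of the neighbours in the Peg13 domain, the potassium channel gene Kcnk9 was at 54.5% in H3K9me3 (6 of 11) and 9.30% in H3K4me1 (8 of 86), and Chrac1 at 5.12% (13 of 254) and 0% (0 of 112). Ago2 had too few calls to test. Of the 3 neighbours, 2 could be tested, and Kcnk9, which is also among the imprinted genes counted at the end, passed (adjusted p = 0.02423, two-sided Fisher's exact test over all promoters). Of all promoters tested 4.45% were called higher in H3K9me3, and with 2 genes tested 1 call is no result about the neighbours.

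Nap1l5, a nucleosome assembly protein family member, carried peaks of both H3K9me3 and H3K27me3 at its start, with opposite methylation. The H3K27me3 peak of 250000 cells runs from 1106 bp before to 764 bp after the start and holds the whole H3K9me3 peak, from 646 bp before to 354 bp after it. Calls in the promoter window were 87.8% methylated in H3K9me3 (166 of 189), 16.3% in 250000-cell H3K27me3 (92 of 564, 13.5 to 19.6%) and 0% in H3K4me1 (0 of 10, which allows up to 30%). The 10 H3K4me1 calls fall on 10 neighbouring CpGs and can come from 1 fragment, so that limit can be too low. H3K9me3 was thus 71.5 points above H3K27me3 (65.2 to 76.3 points, a description with no test), and 73.0 points above it (66.6 to 77.9) over the 49 CpGs with a call in both. A difference of 20 points or more was found at 6.82% of 6653 promoters, and one as large at 0.286%.

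The low level at Nap1l5 in H3K27me3 was centred on the start. Within 500 bp on both sides 48 of 492 calls were methylated (9.76%, 7.44 to 12.7%). It was 42.9% (18 of 42) from 500 to 1000 bp into the gene and 86.7% (26 of 30) from 500 to 1000 bp before it. In H3K9me3 run 2 the same stretches had 148 of 167, 8 of 10 and 10 of 12 methylated, so that library showed no such dip. By cell number the H3K27me3 promoter level was 2 of 4 calls with 4000 cells, 6.33% with 20000 (5 of 79, 2.73 to 14%), 9.41% with 100000 (32 of 340, 6.75 to 13%) and 16.3% with 250000. The intervals of the 100000-cell and 250000-cell libraries do not overlap, with 1 library of each. Over the gene body with 2 kb on both sides the level was 10.8, 13.2 and 18.2% in the 3 larger libraries at Nap1l5, and 14.6, 21.0 and 27.6% at Herc3. The Herc3 window holds that of Nap1l5, and without it Herc3 was at 17.2, 25.5 and 36.1%. A peak was called over Nap1l5 with 100000 cells, with 250000 cells and in the control, and in neither smaller library.

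**Figure D4:**
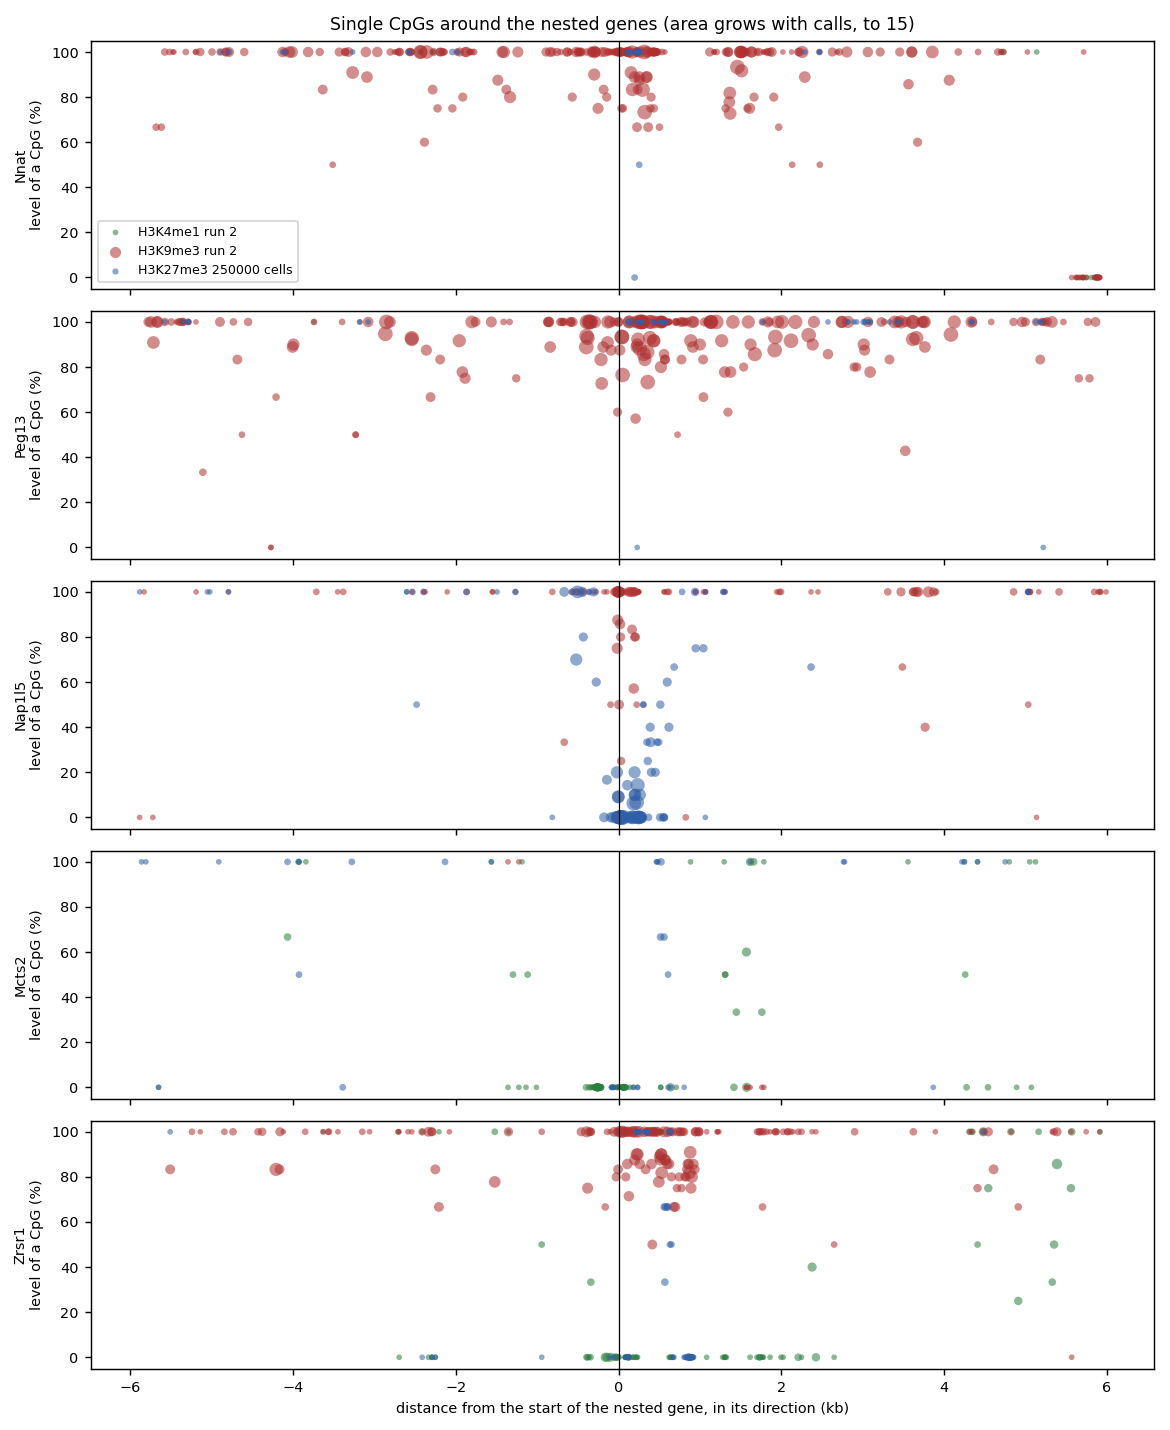
Methylation level of single CpGs (y, %) by distance from the start of each nested gene in its direction (x, kb), for H3K4me1 run 2 (green), H3K9me3 run 2 (red) and 250000-cell H3K27me3 (blue), with larger points for more calls. At Nap1l5 red points lie high and blue points low around 0, at Zrsr1 red points lie high and green points low, and at Nnat red points drop to 0 near the Blcap start.

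How Nap1l5 compared with its host depended on which start of Herc3 was taken. Herc3 encodes a ubiquitin ligase of the HECT family. At its annotated start, a window of 22 CpGs, it was at 90% in 250000-cell H3K27me3 (90 of 100, 82.6 to 94.5%), and Nap1l5 was lower by 73.7 points (difference -73.7, interval -79.0 to -65.6, adjusted p = 1.04e-46, Fisher's exact test over 2114 pairs). The 5′ end of the gene lies 2245 bp away and has 100 CpGs in its window. There 11 of 385 calls were methylated (2.86%, 1.60 to 5.04%), and Nap1l5 was 13.5 points higher (9.89 to 17.0, adjusted p = 6.288e-12, same Fisher's exact test). With windows of 2000 bp around the annotated start, which reach to within 245 bp of the 5′ end, Herc3 was at 26.2% and the difference was -8.17 points (adjusted p = 0.003758, Fisher's exact test). The CpG-rich 5′ end was also low in H3K4me1 (1 of 32) and had 0 H3K9me3 calls in both runs. An H3K27me3 peak of 4296 bp covers it with 250000 cells, so both the host and the nested gene had a Polycomb peak. They were the only members with an H3K27me3 peak at the promoter, 1 of 5 nested genes and 1 of 5 hosts. Of all promoters 17% overlapped a peak of that list, so this number is near the background and is no result about the pair.

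Zrsr1, which encodes a splicing factor related to U2AF, showed the contrast between H3K9me3 and H3K4me1. In H3K4me1 run 2 it was at 13.2% (10 of 76, 7.31 to 22.6%) and in run 1 at 21.9% (7 of 32). H3K9me3 was 77.4 points above H3K4me1 (67.6 to 83.6, adjusted p = 6.539e-42, two-sided Fisher's exact test over 5973 promoters), and 76.9 points above it over the 45 CpGs called in both. Nap1l5 was the other member called in that direction, by 87.8 points (59.6 to 91.8, adjusted p = 5.034e-07, same exact test), from only 10 H3K4me1 calls. They fall on 10 CpGs between -20 and 18 bp from the start, with 1 call each. All can come from 1 fragment, so the interval and p-value can overstate the evidence. Blcap (-1.08 points) and Commd1 (-5.56 points) were not called (adjusted p = 1 for each, Fisher's exact test), and 6 members had under 10 calls in at least 1 of these libraries. Of all promoters tested 4.45% were called higher in H3K9me3 and 0.335% lower. As large a difference was found at 0.368% of promoters for Zrsr1 and 0.134% for Nap1l5.

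Along Zrsr1 the H3K4me1 level changed while that of H3K9me3 stayed high. H3K4me1 run 2 had 1 of 35 calls methylated in the 500 bp before the start, 8 of 39 in the first 1000 bp, 2 of 32 from 1000 to 3000 bp and 35 of 46 (76.1%, 62.1 to 86.1%) from 4000 to 6000 bp. H3K9me3 run 2 had 55 of 60, 440 of 487, 49 of 51 and 33 of 37 in the same stretches. The 8 methylated H3K4me1 calls of the first 1000 bp lie on neighbouring CpGs from 460 to 529 bp, with 1 call each. They can come from 1 fragment, and they are among the 10 methylated calls of the promoter window. Around the end of the gene, peaks of both marks overlapped: H3K4me1 from 4800 to 5493 bp and H3K9me3 from 3691 to 5356 bp after the start in run 2. In 250000-cell H3K27me3 the promoter was at 39.7% (25 of 63, 28.5 to 52.0%), with no peak and calls per CpG at 0.411 of the library mean. Those 63 calls fall on 41 CpGs, and neighbouring calls can come from 1 fragment.

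Commd1, a copper metabolism and NF-kappaB regulator, was low in every library with calls at its first start: 7 of 126 in H3K4me1 run 2 (5.56%, 2.72 to 11%), 0 of 12 in H3K9me3 run 2 and 0 of 32 in H3K27me3 of 250000 cells. The promoter table lists a second Commd1 start 9418 bp downstream and 861 bp from the Zrsr1 start. Its window overlaps that of Zrsr1 and had nearly the same values, 8 of 70, 481 of 531 and 25 of 62. In H3K4me1 Zrsr1 was 7.6 points above Commd1 (-0.406 to 17.4), which did not pass (adjusted p = 0.09262, Fisher's exact test over 1572 pairs). With both runs summed it passed at 9.86 points (adjusted p = 0.01536, Fisher's exact test), and with the outer end of Commd1, which has 14 CpGs near it, as its start it reversed to -75.1 points.

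Mcts2, a translation re-initiation factor copied from Mcts1, had no H3K9me3 call at its promoter and was read mainly in H3K4me1. Its promoter was nearly free of methylation in that library: 1 of 83 in run 2 (1.20%, 0.213 to 6.51%) and 3 of 59 in run 1 (5.08%, 1.74 to 13.9%). Within 500 bp of the start 0 of 77 were methylated, which allows up to 3.90%, and from 500 to 2000 bp past it 17 of 38 (44.7%, 30.1 to 60.3%). An H3K4me1 peak lay in that downstream stretch in run 1, from 1063 to 1707 bp, and in the control, but not in run 2. In 250000-cell H3K27me3, without a peak, Mcts2 was at 42.3% (11 of 26, 25.5 to 61.1%), with 21.7% (5 of 23) at 100000 cells and 4 of 5 at 20000 cells. The 26 calls fall on 16 CpGs, and neighbouring calls can come from 1 fragment.

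H13, a signal peptide peptidase and the host of Mcts2, had few methylated calls at its promoter. It had 0 of 21 in H3K4me1 run 2, which allows up to 14.3%. In H3K27me3 it had 5 of 52 with 250000 cells (9.62%, 4.18 to 20.6%) and 2 of 13 with 100000 cells (15.4%, 4.33 to 42.2%). Mcts2 was 32.7 points above H13 in the 250000-cell H3K27me3 library (12.7 to 52.2, adjusted p = 0.002696, Fisher's exact test over 2114 pairs). The call was lost with windows of 2000 bp (20.7 points, adjusted p = 0.07185), with each CpG counted once (27.5 points, adjusted p = 0.07431) and with 100000 cells (6.35 points, adjusted p = 1), all by Fisher's exact test. In H3K4me1 the difference was 1.20 points (-14.3 to 6.51, adjusted p = 1, Fisher's exact test). The parent genes of the retrogenes lie elsewhere, and their promoters in H3K4me1 run 2 were at 6.25% for Mcts1 (1 of 16) and 2.56% for Zrsr2 (2 of 78), with 0 and 4 H3K9me3 calls.

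In 250000-cell H3K27me3 all 5 pairs could be tested. Beside Mcts2 above H13, Nnat was 85 points above Blcap (17 of 20 calls against 0 of 42, 62.4 to 94.8, adjusted p = 3.833e-12, Fisher's exact test), Peg13 94.7 points above Trappc9 (77.9 to 98.3, adjusted p = 4.25e-21) and Zrsr1 39.7 points above Commd1 (24.2 to 52.0, adjusted p = 7.893e-06). The Nnat calls fall on 12 CpGs and the Peg13 calls on 20, so each set can come from few fragments. With Herc3 at its annotated start, 4 pairs were thus called higher at the nested gene and 1 lower. Over all 2114 nested pairs 67.3% were called higher and 10.6% lower, with a median of 40.6 points, and 54% of pairs with at least 40 CpGs in both windows were called higher. In H3K4me1, where 2 pairs could be tested and 0 were called, these shares were 66.2, 6.42 and 44.7%, and the median was 30.5 points.

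**Figure D5:**
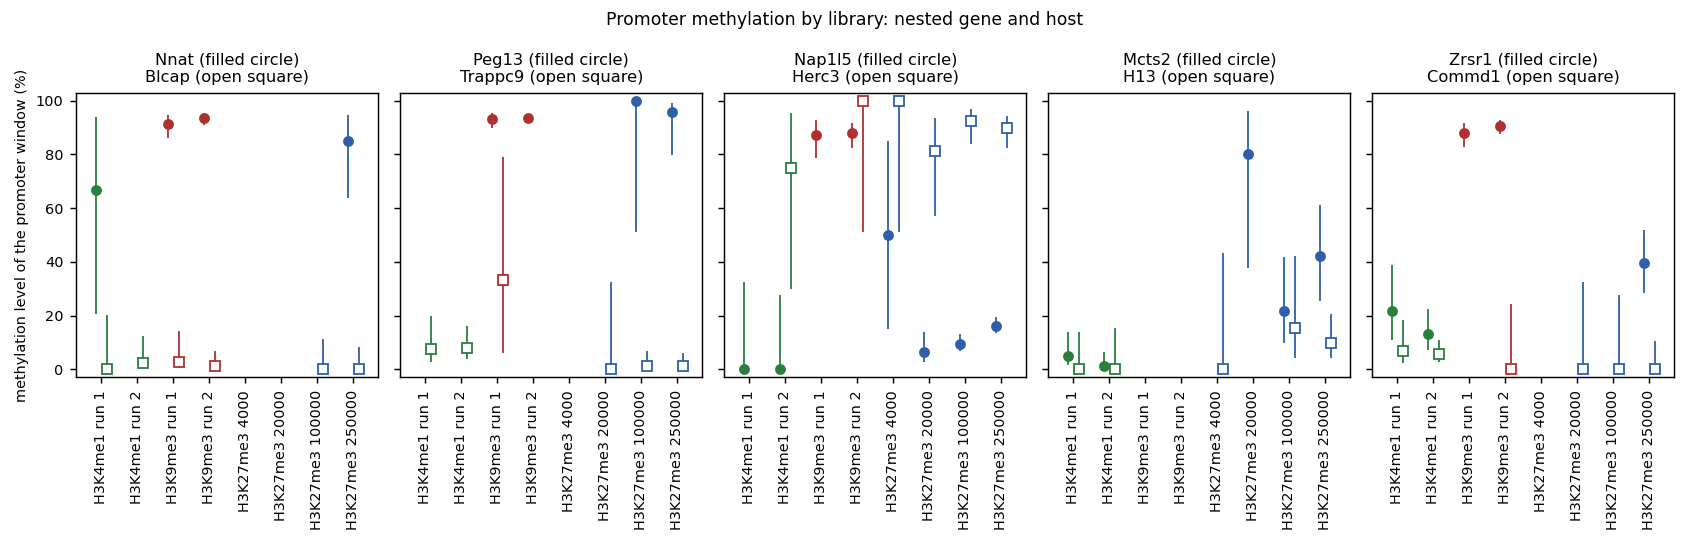
Promoter methylation level (%) of nested gene (filled circle) and host (open square, Herc3 at its annotated start) in each of the 8 bisulfite libraries with at least 3 calls. Bars are 95% Wilson intervals of calls in 1 library, H3K27me3 libraries are named by cell number, and colours are H3K4me1 green, H3K9me3 red and H3K27me3 blue. H3K9me3 circles lie from 87.4 to 93.5%, and squares of Blcap, H13 and Commd1 at 15.4% or less.

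H3K4me1 peaks lay in some of the gene bodies. They overlapped 0 of 5 nested and 0 of 5 host promoters, against 12.3% of all promoters in run 2. With so few members this is near the background and is no result about them. In that run 3 peaks were in the body window of H13, 4 in that of Commd1 and 1 each in those of Trappc9 and Zrsr1. The body windows of Blcap and Herc3 held 0. Of the 10 bodies, that of H13 had the densest H3K4me1 calls, at 29.9% methylation (941 of 3149) over its body, with 21 H3K9me3 calls. All calls of H3K9me3 run 2 were at 81.9%. In that library the bodies of the other hosts were at 88.1% for Blcap, 91.0% for Trappc9, 90.4% for Herc3 and 87.9% for Commd1. Without the nested gene and 2 kb around it they were at 74.5, 89.1, 91.3 and 80.6%, so Blcap and Commd1 fell below the library level. The call number over the Blcap body fell from 1253 to 349 by that step, and over the Commd1 body from 929 to 268, so most H3K9me3 calls of these hosts belong to the nested gene and its flanks. Herc3 went from 510 to 254 and Trappc9 from 3588 to 2025.

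Of all promoters tested for H3K9me3 against H3K4me1, 4.45% were called higher in H3K9me3 and 0.335% lower. Among 21 other imprinted genes 12 could be tested, and 6 were called higher and 0 lower. These 12 had a median of 24.6 points, against -0.355 over all promoters. The most different were Airn, an antisense RNA of the Igf2r cluster (139 of 147 against 0 of 25), Meg3, a maternally expressed noncoding RNA (82 of 87 against 1 of 34), and Peg3, a zinc finger gene (224 of 261 against 0 of 23). Their differences of 94.6, 91.3 and 85.8 points stand beside 87.8 at Nap1l5 and 77.4 at Zrsr1. Of 10 genes of imprint maintenance 4 could be tested and 1 was called, Dppa3, which protects maternal methylation in the early embryo, at 73.8% (31 of 42) against 17.6% (3 of 17). With 4 genes tested, 1 call is no result about that list.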

How the data were processed

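CpG calls and peaks were taken as deposited. The authors' table gives 2 raw counts per bisulfite library at each of 21908008 CpGs, methylated calls and total calls, with no normalization. Per the submitters' processing notes, cutadapt 1.12, Bismark 0.23.0, Bowtie2 2.3.0, HOMER 4.10.3 and bedtools 2.29.2 were used with build mm10. Duplicate removal is not given in the sources used here, so amplified copies may inflate the calls. Peak lists hold positions only and other columns of them were not used.

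Levels are methylated over all calls in percent, with Wilson intervals. Promoter windows span 1000 bp on both sides of the most 5′ start in the RefSeq promoter table (GRCm38.p6). All 407620 CGs of its sequences were found in the counts table at 1-based positions. Run 2 and the 250000-cell library were the main libraries, as the deepest of each mark. Fisher's exact test, two-sided, was run on windows with at least 10 calls, adjusted by Benjamini-Hochberg over all nested pairs (7084 in the annotation, starts at least 3000 bp apart) or all promoters, with a threshold of 0.05. In simulated calls at the real depths, with differences of 40 points, 77.5% of changed H3K27me3 pairs, 57.8% of H3K9me3 pairs, 82.5% of H3K4me1 pairs and 48% of promoters were recovered. The simulated calls were independent and their lower level was drawn at random. Real calls share fragments and many real promoters lie near 0%, so these shares need not hold for them. A peak overlap was 1 bp or more. Alternatives were windows of 500 and 2000 bp, other starts, runs, cell numbers, call minimums, pooling rules and peak lists. Members, lists and the rule for named genes (all members, and the 3 most different of a list) were chosen with earlier results of these data known. The analysis used Python 3.11.15, numpy 2.4.6, pandas 2.3.3, scipy 1.17.1 and matplotlib 3.10.9.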

Additional observations from a re-analysis of the deposited data

How the results depend on the processing

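Of 96 differences recomputed under the alternatives, 85 did not change sign and, where tested, kept their side of the threshold. Among them, Mcts2 minus H13 in H3K4me1 with 500 bp was at 0. Differences as means of CpG levels had no test. Differences that were not called changed sign for Mcts2 minus H13 in H3K4me1, from 1.20 to -2.74 points with 2000 bp, and for H3K9me3 minus H3K4me1 at Blcap, from -1.08 to 3.70 with the same CpGs, 2.78 with run 1 and 0.0155 with runs summed. The other exceptions were the Zrsr1 and Commd1 pair in H3K4me1, at -75.1 points (adjusted p = 1.355e-08, Fisher's exact test) with the outer end of Commd1 as start (richer in CpGs than its other end but not than its annotated start) and 9.86 points (p = 0.01536) with runs summed, the Nap1l5 and Herc3 pair in H3K27me3, at 13.5 points (p = 6.288e-12) with the 5′ end of Herc3 and -63.8 points as a mean of CpG levels, and the Mcts2 and H13 pair in H3K27me3, at 20.7 points (p = 0.07185) with 2000 bp, 27.5 (p = 0.07431) with each CpG once and 6.35 (p = 1) with 100000 cells. Other than by the change of start, the cause was not tested. The Nap1l5 and Herc3 difference also shrank to -8.17 points (p = 0.003758, Fisher's exact test) with 2000 bp, still called. Counts of nested pairs called higher moved to 298 (H3K4me1), 70 (H3K9me3) and 416 (H3K27me3) with at least 40 CpGs in both windows, from 1040, 221 and 1422. Fewer pairs were tested, and the called share fell as well, from 66.2 to 44.7%, 58.9 to 40.7% and 67.3 to 54%, for which the cause was not tested. With a minimum of 5 calls they were 516 in H3K9me3 and 2243 in H3K27me3, and with 20 calls 67 and 883. Pairs called lower were 101, 36 and 225, and became 58 and 137 in H3K4me1 and H3K27me3 with at least 20 points as well, 61 and 134 with 40 CpGs, and 18 in H3K9me3 with 20 calls. For 4000 and 20000 cells of H3K27me3, the unified list and the control list gave 1 nested and 1 host promoter with a peak in place of 0. Of 69 promoter levels 15, of 35 host body levels 7 and of 22 H3K27me3 body levels 14 moved beyond their interval. No paired analysis was possible because the tests compare calls within or between single libraries and have no replicate term, and the runs of a mark, which differ in read length, were treated as 1 library.

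Depth limits these results in every mark. H3K9me3 run 2 had 0 calls at Mcts2, Trappc9 and H13, 4 at Herc3 and 12 at Commd1, H3K27me3 of 250000 cells had 20 to 26 at Nnat, Peg13 and Mcts2, and H3K4me1 run 2 had 0 at Nnat and Peg13 and 10 at Nap1l5.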
